A study of Mus musculus with 22 samples.

Results

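The genes of the MHC class II antigen presentation machinery and their master activator Ciita were followed in a murine chronic lymphocytic leukemia (CLL) line with and without an intact Nfkbie gene. They were 10 of the 17023 genes that the transcript table gives when its transcripts are summed by the GENCODE gene that holds them: the chains of the classical molecules (H2-Aa, H2-Ab1 and H2-Eb1), the related beta chain H2-Eb2, the chains of H2-DM (H2-DMa, H2-DMb1 and H2-DMb2), the chains of H2-O (H2-Oa and H2-Ob), and Ciita. They were listed by name, and 47 transcripts of the table belong to them. All 10 were found and passed the filter on low counts in every comparison. H2-Ea was not analysed here.

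RNA was sequenced from 22 libraries of TCL1-355 TKO cells, a leukemia line that grew out of a mouse carrying the human TCL1 oncogene under a B-cell enhancer and promoter and that has lesions in Cdkn2a and Cdkn2b. NFKBIE-ko cells had been electroporated with a Cas9 ribonucleoprotein whose crRNA targets exon 2 of the gene, and NFKBIE-wt cells were mock controls that went through electroporation with no crRNA. Cells of each genotype were propagated apart in C57BL/6 mice for 21 days, so that the genotype and its propagation cannot be told apart, then injected intraperitoneally into C57BL/6 recipients and recovered after 10 days from the spleen (4 libraries of each genotype) or the peritoneal cavity (PC, 4 of each). The third compartment was culture for 2 weeks (in vitro, 3 of each). All groups share the line, the transgene and the electroporation. The in vivo cells were not sorted and contain host cells, and in bulk RNA fewer cells of a type and less RNA per cell cannot be told apart. The study's methods give several recipient mice for the in vivo libraries and, for the cultures, cells of different mice that were kept apart. Spleen and PC cells were recovered from the same group of recipients, so a spleen and a PC library can share a mouse. The tests between these compartments take no account of that. The labels do not tie a library to its mouse, and the p-values measure the spread between these libraries.

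MHC class II molecules are pairs of an alpha and a beta chain that show peptides from endocytosed proteins to CD4+ T cells. They assemble on the invariant chain Cd74. H2-DM then takes the last fragment of Cd74 out of the groove in exchange for a peptide, and H2-O, found mainly in B cells, restrains H2-DM. Ciita does not bind DNA itself. It is recruited by a complex of RFX, NF-Y and CREB proteins that sits on the X and Y boxes of class II promoters, and its own level sets that of its targets in most cells. CLL cells, being B cells, carry class II at the surface and can present to CD4+ T cells.

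The promoter stretches that such a complex would read are shown because the 9 H2 genes are compared as a group throughout. Each is 60 bases of GRCm39, written 5′ to 3′ on the strand of the gene, that end with the Y box TGATTGG. Capitals mark that box and, upstream of it, the letters ACNNATG, which fall within the X box region. The window searched ran from 250 bases before to 50 bases after the start of each gene's most abundant transcript, on both strands for the share of all promoters.
H2-Ab1, chr17:34482101-34482160, + strand: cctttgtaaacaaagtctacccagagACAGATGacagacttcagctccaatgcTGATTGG
H2-Eb1, chr17:34524727-34524786, + strand: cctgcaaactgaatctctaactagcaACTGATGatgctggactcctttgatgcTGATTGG
H2-Eb2, chr17:34544494-34544553, + strand: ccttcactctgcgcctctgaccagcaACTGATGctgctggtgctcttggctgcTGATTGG
H2-DMa, chr17:34354466-34354525, + strand: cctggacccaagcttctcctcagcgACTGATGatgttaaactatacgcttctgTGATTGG
H2-DMb2, chr17:34364078-34364137, + strand: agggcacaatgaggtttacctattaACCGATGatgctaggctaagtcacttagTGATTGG
H2-Ob, chr17:34457767-34457826, + strand: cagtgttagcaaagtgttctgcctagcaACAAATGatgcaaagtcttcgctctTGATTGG
H2-Aa, chr17:34506841-34506900, - strand: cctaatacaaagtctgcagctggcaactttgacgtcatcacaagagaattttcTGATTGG
H2-Oa, chr17:34311255-34311314, + strand: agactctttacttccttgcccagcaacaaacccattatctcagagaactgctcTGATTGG

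TGATTGG was found in 8 of the 9 H2 promoters and in 9.74% of the promoters of 13537 genes. The letters ACNNATG were found in all 9 H2 windows and in 26.0% of all. Both together, in that order with 12 to 30 bases between them, occurred in 6 of the 9 H2 promoters and in 24 of the 13537 (0.177%). The space between them was 18 to 21 bases in these 6 genes. The pattern was written down after these sequences had been read, and a match is a description of the letters, not of a bound site. H2-Ob, whose RNA differed in direction from the other members below, held the same pair of letters as H2-Ab1. The windows of H2-DMb1 and Ciita held no TGATTGG.

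All 9 H2 genes lie on chromosome 17 of GRCm39, between the start of H2-Oa at 34311314 and the end of H2-Eb2 at 34560386, and all but H2-Aa are on the + strand. Ciita lies on chromosome 16 at 10297923 to 10347694, + strand. H2-DMb1 and H2-DMb2 share 517 stretches of 31 bases, 37.6% of those in the H2-DMb1 transcript, so that the split of reads between these genes is uncertain. H2-Eb1 and H2-Eb2 share 14 (1.33% of those in H2-Eb1). For H2-Eb1, 47.0% of the level was assigned to a transcript annotated for nonsense-mediated decay and 22.5% to the main coding one, whereas for the other H2 genes and Ciita the most abundant transcript was protein coding and held 78.2% (H2-Ob) to 100% (H2-Eb2). The split between transcripts of a gene is an estimate, and levels below are sums per gene.

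Library totals lay between 24036763 and 26581304 estimated reads, and levels are given as CPM, the reads of a gene scaled to a fixed library total and corrected by TMM factors. Replicates of every group differed by more than sampling noise. Some libraries stood apart from their labels. The library labelled NFKBIE-wt spleen replicate 4 had a median correlation of 0.960 with the other NFKBIE-wt spleens (across genes, log2 CPM). Its median was 0.983 with the NFKBIE-wt cultures and 0.986 with the NFKBIE-ko cultures. The culture labelled as replicate 3 of NFKBIE-wt had 0.946 with the other NFKBIE-wt cultures and 0.984 with the NFKBIE-wt spleens. Red cell and granulocyte genes followed the same lines: 6 erythroid genes summed to 1152 CPM in the culture labelled replicate 3 and to 11.8 and 20.5 CPM in the other NFKBIE-wt cultures, and to 6.73 CPM in the spleen labelled replicate 4, the lowest of the 4. Both libraries keep their labels here, and the main results on the members are given with and without them. The culture labelled replicate 2 of NFKBIE-wt was nearer to the NFKBIE-ko cultures (0.990) than to the other NFKBIE-wt cultures (0.956). So was the culture labelled replicate 1 (0.979 against 0.963). For each of them the other NFKBIE-wt cultures include the one labelled replicate 3. How far a small lesion in exon 2 changes Nfkbie RNA is not known here, so its level checks no label. Nfkbie RNA was 47.2 to 64.9 CPM in NFKBIE-ko PC libraries and 67.3 to 91.2 in NFKBIE-wt ones. That difference passed (log2 fold change -0.56, edgeR adjusted p = 0.0038), as did 43.4% of all genes. In cultures Nfkbie RNA was 48.2 to 59.9 CPM in NFKBIE-ko and 54.3 to 141 in NFKBIE-wt (-0.93, edgeR adjusted p = 0.52). In the spleens it was 54.2 to 120 CPM in NFKBIE-ko and 70.9 to 124 in NFKBIE-wt (0.19, edgeR adjusted p = 0.73).

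Ciita ranged from 8.51 to 197 CPM over the 22 libraries. Its level was 192 ± 8.47 CPM in NFKBIE-ko cultures (SD, n = 3), followed by 67.9 ± 51.5 in NFKBIE-wt cultures (n = 3), 54.6 ± 11.5 in NFKBIE-ko spleens, 35.8 ± 33.2 in NFKBIE-wt spleens, 25.3 ± 6.24 in NFKBIE-ko PC and 10.1 ± 1.67 in NFKBIE-wt PC (n = 4 each). The first and the last step of this order separated groups that did not overlap. The neighbours in between overlapped, and without the library labelled replicate 4 the NFKBIE-wt spleens fell to 19.3 ± 4.46 CPM (n = 3), below every NFKBIE-ko spleen. Without the culture labelled replicate 3 the NFKBIE-wt cultures rose to 93.0 ± 38.9 CPM (n = 2).

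The classical chains were highest in NFKBIE-ko cultures and lowest in NFKBIE-wt PC. H2-Aa averaged 1324 ± 42.1 CPM in NFKBIE-ko cultures (SD, n = 3) and 213 ± 24.99 CPM in NFKBIE-wt PC (n = 4). The groups between these ends, at 404 ± 171 CPM in NFKBIE-wt spleens, 550 ± 398 in NFKBIE-wt cultures, 569 ± 120 in NFKBIE-ko PC and 574 ± 150 in NFKBIE-ko spleens, overlapped one another, and the lowest NFKBIE-wt spleen (245) lay within the NFKBIE-wt PC range (191 to 248). Without the libraries that stand apart, H2-Aa was 324 ± 72.8 CPM in NFKBIE-wt spleens (n = 3) and 704 ± 417 in NFKBIE-wt cultures (n = 2). H2-Oa was highest in NFKBIE-ko cultures too (35.0 ± 2.14 CPM), with NFKBIE-ko PC next (23.6 ± 0.772). H2-Ob followed another order: NFKBIE-wt PC was highest (69.2 ± 4.65 CPM), above NFKBIE-ko cultures (61.7 ± 2.52), NFKBIE-wt cultures (52.7 ± 10.4), NFKBIE-ko PC (50.2 ± 4.10), NFKBIE-wt spleens (42.0 ± 14.6) and NFKBIE-ko spleens (19.9 ± 4.15). Among these the NFKBIE-wt cultures, NFKBIE-ko PC and NFKBIE-wt spleens overlapped. The highest NFKBIE-wt spleen (63.4 CPM) also lay within the range of the NFKBIE-ko cultures (60.1 to 64.6). NFKBIE-ko spleens were below all others.

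Between genes, levels can be set side by side only per length. On the scale of reads per kilobase of transcript, brought to the same total in every library, NFKBIE-ko cultures held Cd74 at 10176, H2-Aa at 2201, H2-Ab1 at 1938 and H2-Eb1 at 1871. H2-DMb2 (578), H2-DMa (251) and H2-DMb1 (136) followed, then H2-Ob (59.0), H2-Oa (54.5), Ciita (52.0) and H2-Eb2 (47.9). H2-Aa and H2-Ab1, which pair, stayed near each other in level in all groups. The ratio of H2-Aa to H2-Ab1 on this scale lay between 0.993 and 1.34 over the 22 libraries, and that of H2-DMa to the sum of H2-DMb1 and H2-DMb2 between 0.303 and 0.503.

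**Figure D1:**
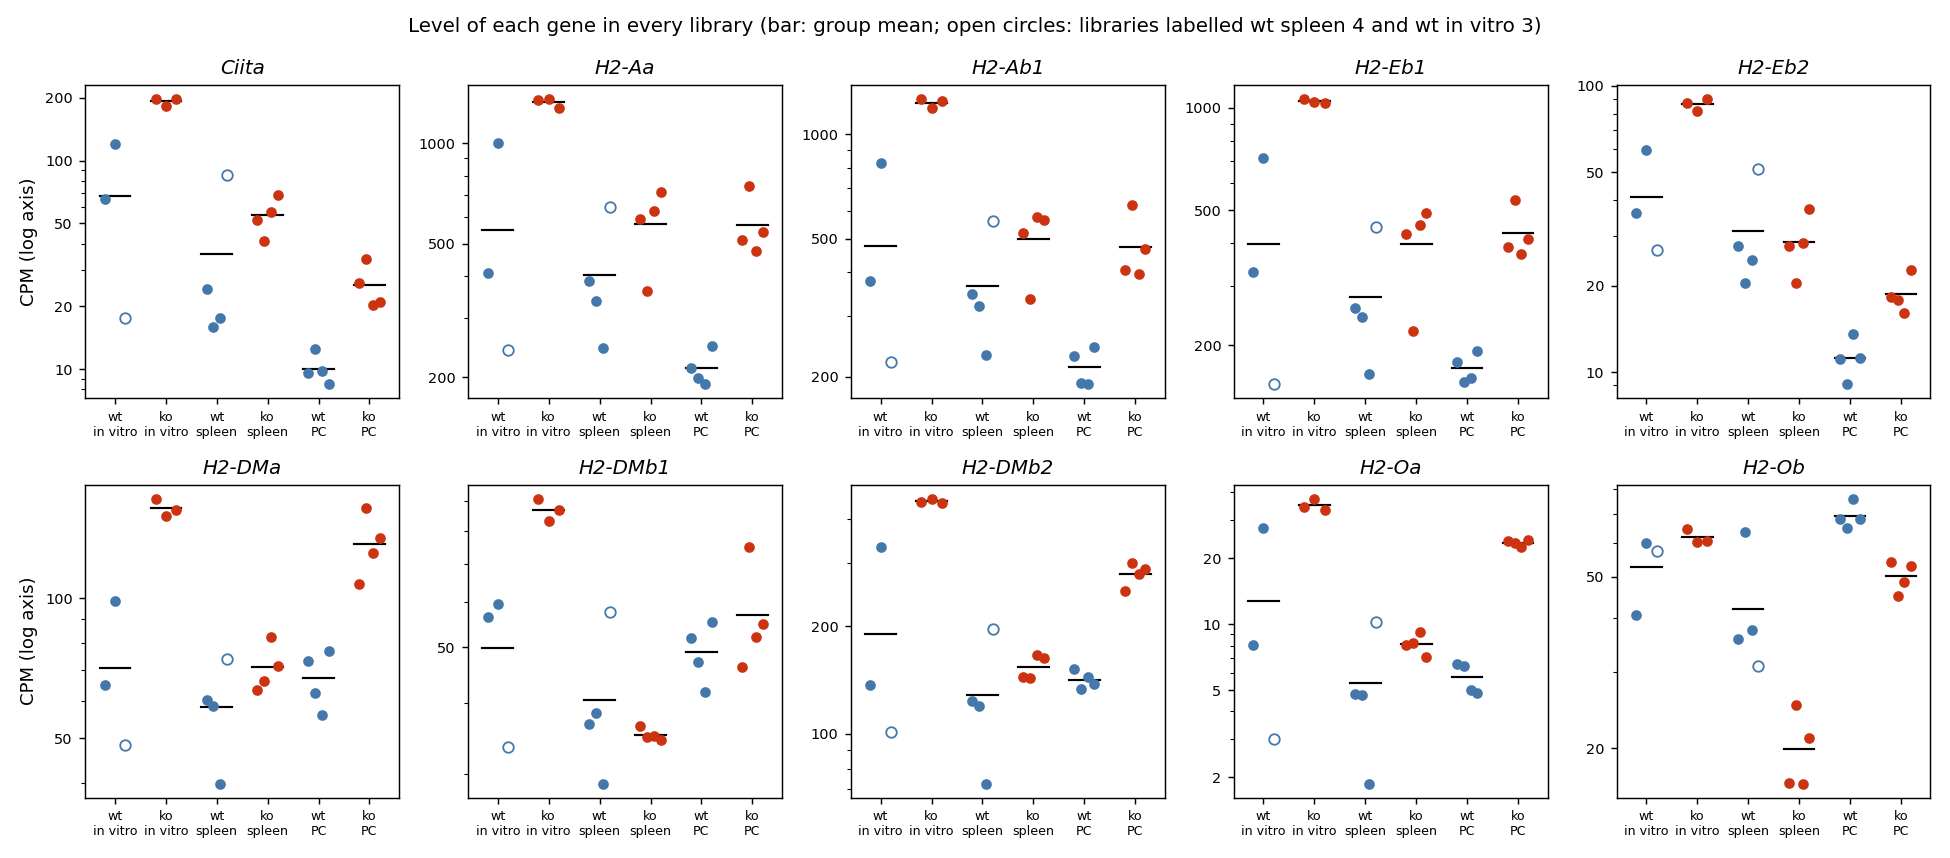
Level of each gene in every library, in CPM on a log axis, by genotype (blue NFKBIE-wt, red NFKBIE-ko) and compartment. Points are libraries, bars are group means, and open circles are the libraries labelled NFKBIE-wt spleen 4 and NFKBIE-wt in vitro 3. NFKBIE-ko cultures sit highest for every gene but H2-Ob, whose NFKBIE-wt PC libraries lie between 64.9 and 75.8 CPM.

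In the PC, loss of NFKBIE went with higher RNA of Ciita, of all classical chains and of most of the loading machinery, and with lower H2-Ob. With edgeR's quasi-likelihood test and Benjamini-Hochberg adjustment over all genes, 9 of the 10 members had an adjusted p below 0.05, 8 higher and 1 lower in NFKBIE-ko, where 43.4% of all genes tested passed. Of the 12642 genes 22.5% were higher and 20.9% lower. The median log2 fold change of the 10 members was 1.05, beside a median near 0 over all genes (-0.01).

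Ciita was 25.9, 33.8, 20.3 and 21.0 CPM in the NFKBIE-ko PC libraries and 9.59, 12.4, 9.76 and 8.51 CPM in the NFKBIE-wt ones. Every NFKBIE-ko library was above every NFKBIE-wt library. The log2 fold change was 1.31 ± 0.17 (SE, edgeR adjusted p = 0.00018). H2-Aa, the alpha chain of the I-A molecule, was 513, 744, 477 and 542 CPM in NFKBIE-ko and 214, 199, 191 and 248 in NFKBIE-wt. The groups lay well apart, and the second NFKBIE-ko library was the highest. The log2 fold change was 1.40 ± 0.14 (SE, edgeR adjusted p = 3.5e-05). Its partner H2-Ab1 was 407, 627, 394 and 468 CPM against 229, 192, 191 and 244 CPM, again without overlap and with the same library on top (log2 fold change 1.13 ± 0.15, edgeR adjusted p = 0.00025). H2-Eb1, the beta chain of the I-E molecule, was 390, 535, 373 and 410 CPM against 178, 156, 161 and 192 (log2 fold change 1.30 ± 0.12, edgeR adjusted p = 1.7e-05). H2-Eb2 was lower in level, at 16.1 to 22.8 CPM in NFKBIE-ko and 9.10 to 13.6 in NFKBIE-wt, a difference of 0.73 ± 0.14 (SE) on the log2 scale (edgeR adjusted p = 0.0023).

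Of the H2-DM chains, H2-DMa (107 to 156 CPM in NFKBIE-ko, 56.0 to 77.0 in NFKBIE-wt) and H2-DMb2 (252 to 301 against 134 to 152) rose without overlap between the genotypes, by 0.95 ± 0.13 and 0.97 ± 0.08 on the log2 scale (SE). H2-DMb1 had 46.2, 74.9, 52.0 and 54.9 CPM in NFKBIE-ko and 51.8, 47.2, 41.8 and 55.3 in NFKBIE-wt. These overlapped, and its log2 fold change of 0.20 ± 0.14 (SE) did not pass the test (edgeR adjusted p = 0.28). Given the sequence that the H2-DM beta chains share, how much of H2-DMb1's level belongs to it is uncertain.

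The chains of H2-O moved in opposite directions in the PC. H2-Oa was 24.01, 23.6, 22.6 and 24.3 CPM in NFKBIE-ko and 6.59, 6.48, 5.03 and 4.88 CPM in NFKBIE-wt, the largest difference of the 10 genes in the PC. Both groups were tight, and they did not overlap. Its log2 fold change was 2.03 ± 0.12 (SE, edgeR adjusted p = 1.1e-06). H2-Ob was 54.0, 45.1, 48.7 and 52.9 CPM in NFKBIE-ko and 68.2, 64.9, 75.8 and 68.1 CPM in NFKBIE-wt. Every NFKBIE-ko library was below every NFKBIE-wt one, by -0.48 on the log2 scale ± 0.08 (SE, edgeR adjusted p = 0.00089). On the scale per length, the ratio of H2-Oa to H2-Ob was thus 0.717 to 0.873 in NFKBIE-ko PC and 0.120 to 0.177 in NFKBIE-wt PC. Altogether 8 members were higher and 1 lower without overlap, and 22.1% and 19.4% of all genes were so. Leaving out any single PC library kept 9 members past the threshold.

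**Figure D2:**
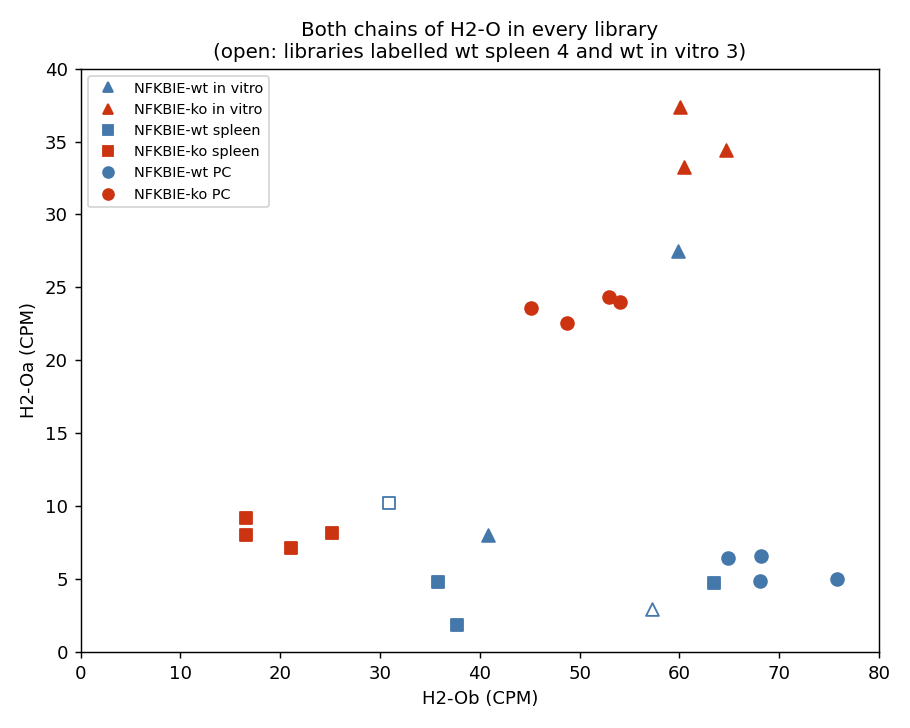
H2-Oa against H2-Ob, both in CPM, in each of the 22 libraries (blue NFKBIE-wt, red NFKBIE-ko, symbols by compartment, open symbols the libraries labelled NFKBIE-wt spleen 4 and NFKBIE-wt in vitro 3). NFKBIE-ko PC libraries lie at 22.6 to 24.3 CPM of H2-Oa and NFKBIE-wt PC libraries at 4.88 to 6.59, with H2-Ob to the right in the latter.

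In vitro, all 10 members were higher in every NFKBIE-ko library than in any NFKBIE-wt library, but none passed the adjusted threshold. That count of 10 stands beside 9.9% of all genes that were higher without overlap. The number of members with an adjusted p below 0.05 was 0 with edgeR's quasi-likelihood test, where 0.0341% of the 11722 genes tested passed. At an unadjusted p below 0.05 there were 8, and 9.59% of all genes. DESeq2 called 3 members (H2-DMa, H2-DMb1 and H2-Eb2), and its share over all genes was not counted. The median log2 fold change of the members was 1.25.

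The NFKBIE-ko cultures were alike and the NFKBIE-wt cultures were not. Ciita was 197, 182 and 197 CPM in NFKBIE-ko and 65.5, 121 and 17.6 CPM in NFKBIE-wt. The NFKBIE-wt cultures differed widely from each other, with the one labelled replicate 3 lowest and replicate 2 highest. The log2 fold change was 1.50 ± 0.61 (SE, edgeR adjusted p = 0.52). H2-Aa was 1344, 1352 and 1276 CPM against 409, 999 and 242, and H2-Ab1 was 1264, 1189 and 1248 against 378, 826 and 221. The same NFKBIE-wt library, replicate 2, lay nearest to the NFKBIE-ko cultures for both. H2-Oa was 34.4, 37.4 and 33.2 CPM against 8.004, 27.5 and 2.996, and H2-DMa was 163, 150 and 155 against 65.2, 98.5 and 48.5. H2-Ob differed least, at 64.6, 60.1 and 60.5 CPM against 40.8, 59.9 and 57.3 (log2 fold change 0.22 ± 0.16, edgeR adjusted p = 0.60).

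Without the culture labelled replicate 3, the count of members past the threshold stayed at 0 (0.0759% of all genes passed) and the log2 fold change of Ciita was 1.05 ± 0.27 (SE), that of H2-Aa 0.92 ± 0.38 and that of H2-DMa 0.94 ± 0.19. Without replicate 2 in its place, 7 members passed, with H2-Aa at 2.03 ± 0.23 (SE, edgeR adjusted p = 0.026) and H2-Oa at 2.68 ± 0.42 (SE, edgeR adjusted p = 0.037). The share of all genes that passed in that fit was not counted, so the 7 cannot be set against it. Ciita was then at 2.22 ± 0.56 (SE) and did not pass (edgeR adjusted p = 0.079).

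In the spleen, H2-Ob alone among the 10 members passed the test, and it was lower in NFKBIE-ko, where 5.43% of all 12221 genes passed and 3.13% were lower. It was 16.6, 25.2, 16.5 and 21.1 CPM in NFKBIE-ko and 35.8, 63.4, 37.7 and 30.9 CPM in NFKBIE-wt. All NFKBIE-ko spleens lay below all NFKBIE-wt spleens, where 8.16% of all genes were lower without overlap. The log2 fold change was -1.08 ± 0.24 (SE, edgeR adjusted p = 0.036). It stood at -1.20 ± 0.23 without the library labelled replicate 4 (edgeR adjusted p = 0.013), and lost the call when NFKBIE-wt replicate 1 or 3 or NFKBIE-ko replicate 1, 3 or 4 was left out.

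Ciita in the spleen turned on 1 library. It was 52.1, 41.0, 56.5 and 68.7 CPM in NFKBIE-ko and 24.3, 15.9, 17.6 and 85.2 CPM in NFKBIE-wt. The value of 85.2 belongs to the library labelled NFKBIE-wt spleen replicate 4 and is the highest of all 8, while the other 3 NFKBIE-wt spleens are below every NFKBIE-ko spleen. With all libraries the log2 fold change was 0.60 ± 0.51 (SE, edgeR adjusted p = 0.53). Without that library it was 1.50 ± 0.21 (SE, edgeR adjusted p = 0.0031), and 12.2% of all genes passed.

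The classical chains followed the same library. H2-Aa was 595, 361, 629 and 712 CPM in NFKBIE-ko spleens and 388, 339, 245 and 645 CPM in NFKBIE-wt ones, where 645 is again replicate 4. The genotypes overlapped even without it. The log2 fold change of H2-Aa was 0.50 ± 0.31 (SE) with it and 0.83 ± 0.24 without it (adjusted p = 0.37 and 0.059 with edgeR). H2-Oa (0.58 with, 1.09 without), H2-Eb1 (0.51 and 0.84) and H2-Ab1 (0.45 and 0.74) were likewise higher without it and did not pass either way. H2-Eb2 changed sign, from -0.13 ± 0.30 with the library to 0.23 without it.

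**Figure D3:**
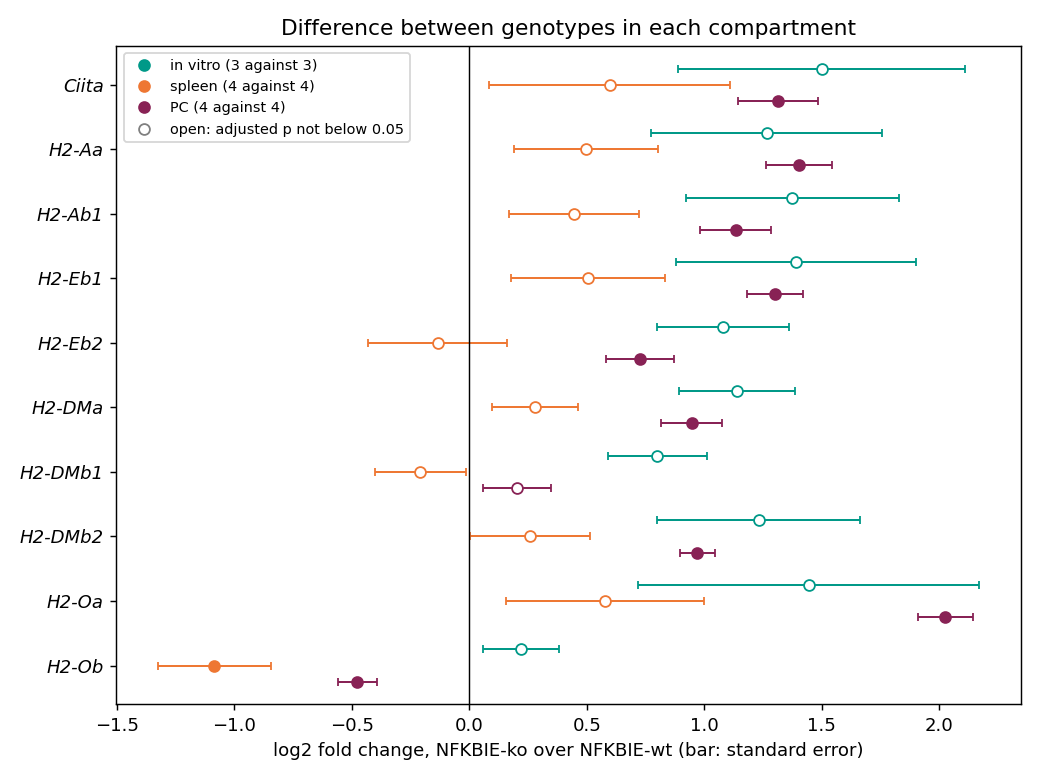
Log2 fold change of NFKBIE-ko over NFKBIE-wt for each gene in the 3 compartments, with all libraries. Points are estimates, bars standard errors, and filled points had an adjusted p below 0.05 with edgeR. PC points are filled for all genes but H2-DMb1, in vitro points are all open and right of 0, and H2-Ob is left of 0 in the PC and the spleen.

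Whether the genotype difference itself differed between compartments was tested with all 22 libraries in the fit. For the PC minus in vitro and for the PC minus the spleen, 0 of the 10 members passed the edgeR test, where 4.8% and 4.92% of 13537 genes did. At an unadjusted p below 0.05 the members were 1 (H2-Ob) and 4 (H2-Eb2, H2-Oa, H2-Ob and H2-DMa), in that order, beside 19.9% and 20.4% of all genes. For the spleen minus in vitro, H2-Ob passed with a difference of -1.31 on the log2 scale ± 0.28 (SE, edgeR adjusted p = 0.047), beside 0.443% of all genes. Its genotype difference was 0.22 in vitro and -1.08 in the spleen. The call is close to the threshold: H2-Ob lost it in 17 of the 22 fits with 1 library left out, with DESeq2's size factors, without the filter on low counts and with single transcripts. Without both libraries that stand apart the difference was -1.49 ± 0.29 (edgeR adjusted p = 0.023). For Ciita the differences between compartments were -0.18 ± 0.74 (PC minus in vitro), 0.72 ± 0.69 (PC minus spleen) and -0.89 ± 0.73 (spleen minus in vitro), and did not pass (adjusted p = 0.95, 0.61 and 0.61 with edgeR), with standard errors nearly as large as the differences or larger.

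The next comparisons ask how the level depends on the compartment within a genotype. They share libraries with the comparisons above and with each other. In NFKBIE-ko cells, 9 of the 10 members were lower in the PC than in vitro, where 67.8% of all genes passed and 31.8% were lower. Ciita fell by 2.87 on the log2 scale ± 0.16 (SE, edgeR adjusted p = 1.1e-06), from 182 to 197 CPM in culture to 20.3 to 33.8 CPM in the PC. H2-Eb2, an E beta chain with a limited tissue range, fell by 2.15 ± 0.10 (SE), from 81.9 to 89.9 CPM to 16.1 to 22.8 CPM. The classical chains H2-Ab1 (-1.33 ± 0.14), H2-Eb1 (-1.24 ± 0.11) and H2-Aa (-1.17 ± 0.13) followed. H2-DMb2 (-0.62), H2-DMb1 (-0.56), H2-Oa (-0.51) and H2-Ob (-0.24) fell less, and H2-DMa was at -0.20 ± 0.10 (edgeR adjusted p = 0.11). The 9 genes other than H2-DMa had no overlap between PC and culture, as 36.1% of all genes had in that direction.

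In NFKBIE-wt cells, 2 members passed between the PC and culture, where 21.4% of all genes did. These were Ciita, at -2.71 ± 0.55 (edgeR adjusted p = 0.018), and H2-Eb2, at -1.82 ± 0.27 (edgeR adjusted p = 0.0064). The 3 NFKBIE-wt cultures had 65.5, 121 and 17.6 CPM of Ciita, and the PC libraries 8.51 to 12.4 CPM. All cultures were above all PC libraries. H2-Aa was at -1.33 ± 0.43 (edgeR adjusted p = 0.064), with the culture labelled replicate 3, at 242 CPM, within the 191 to 248 CPM of the PC. Without that culture, 7 members passed (37.7% of all genes): Ciita (-3.16 ± 0.25, edgeR adjusted p = 0.00036), H2-Eb2, H2-Aa, H2-Ab1, H2-Eb1 and H2-Oa were lower and H2-Ob was higher in the PC (0.51). Without NFKBIE-wt PC replicate 1, 3 or 4, 1 member passed, and the share of all genes was not counted for these fits.

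Between the PC and the spleen, the activator and the genes it is known to act on did not move as one. In NFKBIE-ko cells, 7 of the 10 members passed the edgeR test, 5 higher and 2 lower in the PC, where 59.8% of all genes passed (29.6% higher and 30.1% lower). Ciita was lower in the PC by -1.12 ± 0.19 (41.0 to 68.7 CPM in the spleen, 20.3 to 33.8 in the PC, edgeR adjusted p = 0.00069) and H2-Eb2 by -0.60 ± 0.18. The classical chains were level: H2-Aa was at -0.02 ± 0.20, H2-Ab1 at -0.08 ± 0.19 and H2-Eb1 at 0.10 ± 0.22, with overlapping libraries. All 5 chains of H2-DM and H2-O were higher in the PC. H2-Oa was 22.6 to 24.3 CPM there and 7.12 to 9.20 in the spleen (log2 fold change 1.53 ± 0.10, edgeR adjusted p = 2.6e-06), and H2-Ob was 45.1 to 54.0 and 16.5 to 25.2 CPM (1.33 ± 0.15). H2-DMa (0.88), H2-DMb2 (0.86) and H2-DMb1 (0.69) rose less. Groups did not overlap for these 5 genes (28.2% of all genes were higher in this way), and of the lower genes Ciita alone did not overlap (27.2%). Marker genes of other cells moved between the same libraries. All 11 macrophage and monocyte genes were higher in the PC, with a median log2 fold change of 4.42, all 6 erythroid genes were lower (median -4.44), and 5 of the 7 granulocyte genes tested were lower (median -3.17). Of the 10 B-lineage genes, 7 were higher and 1 lower (median 0.63). Their part in the differences of the members was not tested.

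In NFKBIE-wt cells, 5 members passed between the PC and the spleen, beside 28.6% of all genes. Ciita (-1.79 ± 0.53, edgeR adjusted p = 0.035), H2-Eb2 (-1.43 ± 0.28), H2-Aa (-0.90 ± 0.26) and H2-Ab1 (-0.74 ± 0.24) were lower and H2-Ob (0.75 ± 0.21) was higher in the PC. The NFKBIE-wt spleens had 24.3, 15.9, 17.6 and 85.2 CPM of Ciita, all above the 8.51 to 12.4 CPM of the PC. Without the library labelled replicate 4, Ciita was at -0.92 ± 0.18 (edgeR adjusted p = 0.005). Then 5 members passed again, with H2-DMb1 (0.52, higher in the PC) in place of H2-Ab1, and 35.7% of all genes. With any single NFKBIE-wt PC library left out, 1 member passed, and 2 without NFKBIE-wt spleen replicate 1. How many of all genes passed in these fits was not counted.

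Between the spleen and culture, all 10 members were lower in NFKBIE-ko spleens, where 38.8% of all genes passed and 18.4% were lower. No member overlapped (23.1% of all genes were lower in this way). H2-Oa fell the most, by 2.10 on the log2 scale ± 0.11 (SE, edgeR adjusted p = 8.1e-06), and Ciita fell by 1.81 ± 0.15. H2-Ob (-1.63), H2-Eb2 (-1.60) and H2-DMb2 (-1.53) came next, and H2-DMa was the smallest at -1.13 ± 0.10. In NFKBIE-wt cells 0 members passed, as did 0 of 12332 genes, with 0 members and 1.1% of all genes at an unadjusted p below 0.05 and 0 members with DESeq2. The members' log2 fold changes lay between -1.25 (H2-Oa) and -0.29 (H2-DMa). Without both libraries that stand apart, 1 member passed, Ciita at -2.27 ± 0.31 (edgeR adjusted p = 0.012), beside 6.66% of all genes.

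**Figure D4:**
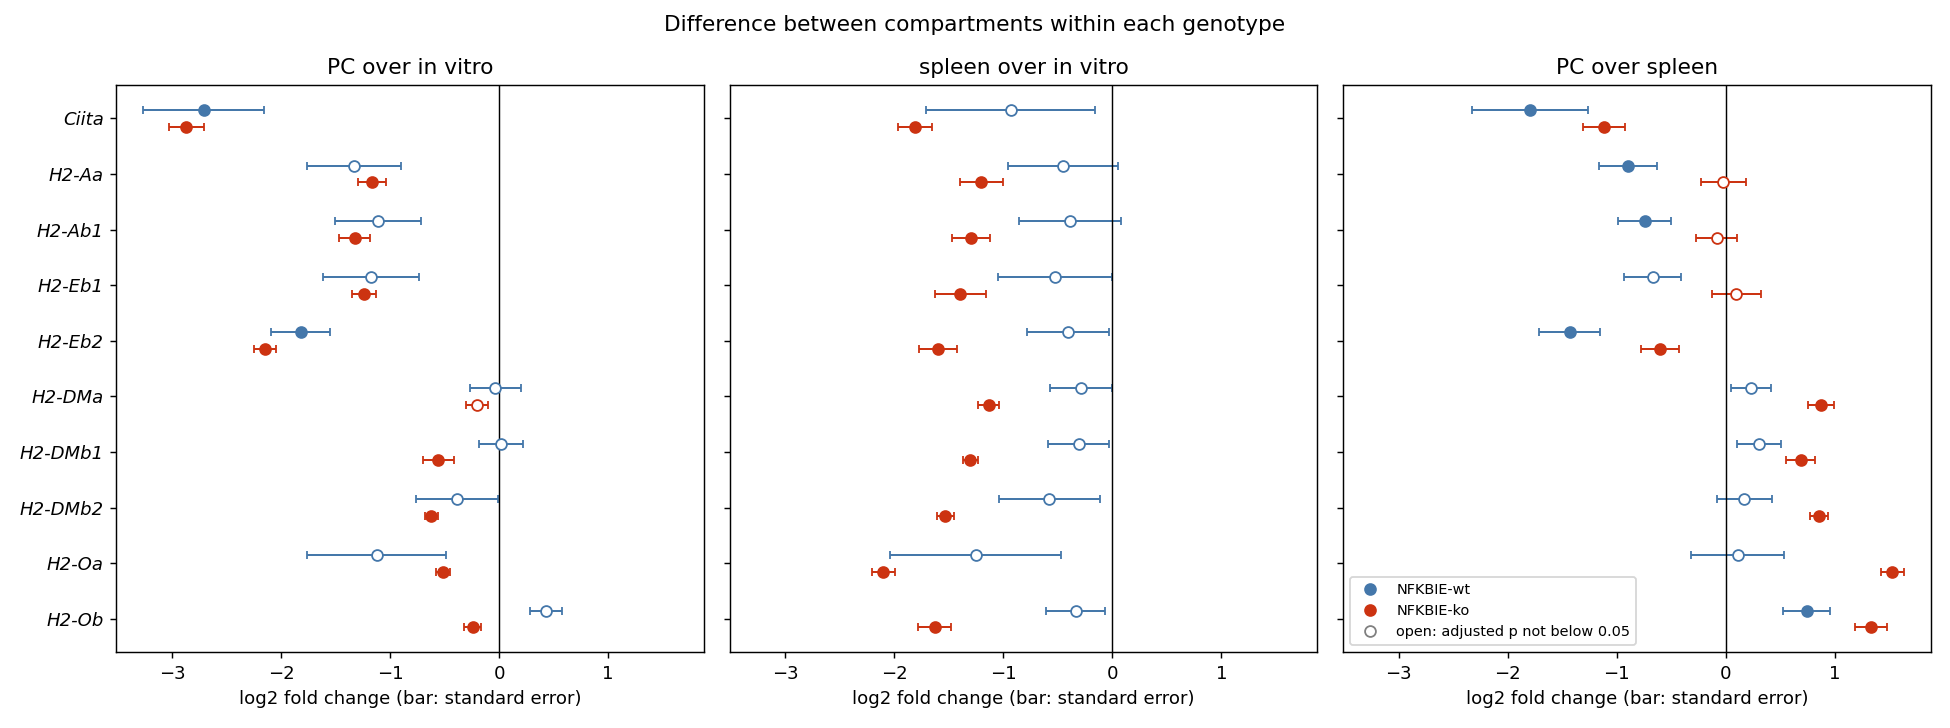
Log2 fold change between compartments for each gene within NFKBIE-wt (blue) and NFKBIE-ko (red), with all libraries. Points are estimates, bars standard errors, and filled points had an adjusted p below 0.05 with edgeR. In the right panel, Ciita and H2-Eb2 lie left of 0 in both genotypes, while NFKBIE-ko points of the H2-DM and H2-O chains lie right of it.

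Ciita is transcribed from several promoters, which give RNAs with different first exons and are used by dendritic cells, B cells and interferon-γ treated cells. The table holds transcripts from 3 clusters of starts on chromosome 16, at 10298015 to 10298028, at 10306042 to 10306143 and at 10307645 to 10307647, with 2 transcripts each. By their order along the gene these correspond to the dendritic, the B-cell and the interferon-γ promoter. The second cluster held 90.7% to 99.5% of the Ciita level in every library. Its level was 186 ± 9.56 CPM in NFKBIE-ko cultures and 64.8 ± 49.9 in NFKBIE-wt ones (SD, n = 3), and 23.7 ± 6.12 in NFKBIE-ko PC and 9.67 ± 1.41 in NFKBIE-wt PC (n = 4). The first and the third cluster were at 0.486 ± 0.226 and 1.03 ± 0.367 CPM in NFKBIE-ko PC. Transcripts of the first cluster averaged 3.44 ± 0.422 CPM in NFKBIE-ko cultures, their highest level.

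Cd74, the invariant chain, is a known Ciita target outside the H2 region. It was 2268, 2650, 2262 and 2195 CPM in NFKBIE-ko PC libraries and 1088, 1019, 895 and 1002 CPM in NFKBIE-wt ones, with no overlap. The log2 fold change was 1.21 ± 0.09 (SE, edgeR adjusted p = 3.9e-06). In NFKBIE-ko cells it fell from culture to the PC by 1.47 ± 0.07 on the log2 scale, and was level between PC and spleen (0.02 ± 0.09). In vitro the genotypes differed by 1.11 ± 0.57 (edgeR adjusted p = 0.54), by 0.72 ± 0.44 without the culture labelled replicate 3 (edgeR adjusted p = 0.63) and by 2.04 ± 0.28 without replicate 2 in its place (edgeR adjusted p = 0.030). Cd74 in the spleen turned on the library labelled replicate 4, as Ciita did. The NFKBIE-wt spleens averaged 1914 ± 1313 CPM with it and 1274 ± 360 without it (SD), beside 2294 ± 97.8 in NFKBIE-ko. Its difference on the log2 scale was 0.25 ± 0.39 with it and 0.85 ± 0.19 without it (SE, edgeR adjusted p = 0.024 in the latter).

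The other genes of the pathway were taken from a list of 33 that covers the promoter complex, regulators of Ciita and peptide processing, of which 32 were tested (31 in vitro). In the PC, 18 were higher and 2 lower in NFKBIE-ko with edgeR, and 8 of the 18 belong to the 10 processing genes. Over all genes 43.4% passed there and 22.5% were higher. Those with the largest change were the lysosomal proteases Ctsd (1.77 ± 0.22, edgeR adjusted p = 0.00023) and Ctsb (1.63 ± 0.29) and the lysosomal thiol reductase Ifi30 (1.57 ± 0.13), which are also abundant in macrophages. In the spleen, 4 were higher and 1 lower, beside 5.43% of all genes, and 9 and 1 without the library labelled replicate 4, beside 12.2%. Among those called with all libraries were the interferon-regulated factor Irf1 (1.41 ± 0.15, edgeR adjusted p = 0.0022) and Prdm1, the plasma cell repressor of Ciita, at -2.03 ± 0.38 (edgeR adjusted p = 0.021). In vitro 0 passed, with 5 at an unadjusted p below 0.05, where 9.59% of all genes were. Without the culture labelled replicate 3 the count stayed at 0, and without replicate 2 in its place 5 were higher and 3 lower. For the latter fit the share of all genes was not counted. Of the 7 genes of the promoter complex, Creb1 was higher (0.28) and Nfyb lower (-0.44) in NFKBIE-ko PC, and Rfx5, the DNA-binding subunit of RFX, was at 0.04 ± 0.08. None of the 7 passed between the genotypes in the spleen or in vitro.

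Between PC and culture, 19 pathway genes were higher and 8 lower in NFKBIE-ko, and 9 and 5 in NFKBIE-wt, where 67.8% and 21.4% of all genes passed. Bcl6, a germinal center repressor, had the largest difference in NFKBIE-ko, with 87 to 134 reads in PC libraries and 0 to 1 in cultures. The lysosomal proteases came next, Ctsl by 5.56 ± 0.21 and Ctsb by 4.81 ± 0.12. In NFKBIE-wt the largest were Ctsl by 2.997 ± 0.66, Ctsb by 2.92 ± 0.40 and Marchf1, the ubiquitin ligase that removes class II from the surface, by 2.90 ± 0.64. Between PC and spleen, 18 were higher and 7 lower in NFKBIE-ko (Ctsl 4.04 ± 0.27, Ctsd 3.35 ± 0.20 and Ctsb 3.30 ± 0.29) and 11 and 5 in NFKBIE-wt (Marchf1 2.90 ± 0.69, Ctsb 2.63 ± 0.30 and Ctsl 2.59 ± 0.32), where 59.8% and 28.6% of all genes passed. Between spleen and culture, 11 were higher and 8 lower in NFKBIE-ko (38.8% of all genes passed), Irf8 by 2.00 ± 0.22 and Cd74 by -1.55 ± 0.08 among them, and 0 passed in NFKBIE-wt. The genotype difference was larger in the PC than in vitro for 3 pathway genes (Ctsl 2.55, Ctsd 1.92 and Ctsb 1.87) and larger than in the spleen for 2 (Ctsd 1.70 and Sppl2a 0.50), beside 4.8% and 4.92% of all genes. It differed for 0 between spleen and culture, beside 0.443% of all genes. There 7 of the pathway genes had an unadjusted p below 0.05, as had 2156 of all 13537 genes tested.

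Macrophages and dendritic cells also carry class II, and macrophage markers moved with the genotype in the PC. The 11 macrophage and monocyte genes summed to 3871 to 5698 CPM in NFKBIE-ko PC libraries and to 592 to 1767 CPM in NFKBIE-wt ones. All 11 passed the edgeR test in that direction, with a median log2 fold change of 1.42, and the NFKBIE-ko library with the highest sum is also the one highest in H2-Aa, H2-Ab1 and H2-Eb1. Gata6 and Timd4, markers of resident peritoneal macrophages, summed to 8.05 to 12.2 CPM against 0.716 to 5.31. The 8 dendritic cell genes summed to 17.5 to 20.7 CPM against 7.04 to 10.6. Of the 5 that could be tested, Zbtb46 (147 to 216 reads against 66 to 86) and Batf3 (124 to 215 against 8 to 21) were higher, while the reads of Flt3 and Itgax overlapped between the genotypes. The 8 T-cell genes summed to 391 to 460 CPM against 243 to 315, and Cd2 and Lck carried nearly all of it. Lck, at 3417 to 4112 reads against 1029 to 1452 in the PC, also had 3012 to 3440 reads in NFKBIE-ko cultures, where Cd3e had 0 to 2. Trac, the constant part of the T-cell receptor alpha chain, went the other way in the PC, with 150 to 185 reads in NFKBIE-ko and 305 to 367 in NFKBIE-wt. The part of these cells in the class II difference in the PC was not tested. The 10 B-lineage genes summed to 3862 to 4037 CPM in NFKBIE-ko PC and 3292 to 3536 in NFKBIE-wt PC, so B-lineage RNA was present in every PC library. With edgeR, 6 of them were higher and 2 lower in NFKBIE-ko (median log2 fold change 0.38), where 43.4% of all genes passed. The sum, a divisor below, thus differed between the genotypes too.

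In NFKBIE-ko cultures, where the class II genes were highest, C1qa, C1qc, Fcgr1 and Cd14 had no read in any library, C1qb and Lyz2 had at most 1 and 5 reads, and both peritoneal macrophage genes were at 0. The whole macrophage list summed to 33.8 to 43.0 CPM there and to 33.7 to 84.5 CPM in NFKBIE-wt cultures, and the genotypes overlapped. Adgre1 (499 to 765 reads) and Cd68 (220 to 279 reads) made up most of it. The dendritic list summed to 19.3 to 21.2 CPM in NFKBIE-ko and 9.21 to 13.1 in NFKBIE-wt cultures, with Clec9a and Cd209a at 0 in every NFKBIE-ko culture. Zbtb46 (349 to 420 reads) made up most of it there, followed by Batf3 (47 to 124), and Itgax had 1 to 4 reads. Both the class II sum and this list were higher in NFKBIE-ko cultures than in any NFKBIE-wt culture, and the part of the latter was not tested.

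Set against the B-lineage sum of the same library, the 9 H2 genes together were 1.48 to 1.68 times that sum in NFKBIE-ko cultures and 0.348 to 0.923 in NFKBIE-wt cultures, where 0.348 is the one labelled replicate 3 and the others were at 0.569 and 0.923. The ratio was 0.452 to 0.625 in NFKBIE-ko PC and 0.246 to 0.311 in NFKBIE-wt PC, again without overlap, and 0.522 to 1.13 and 0.436 to 0.833 in the spleens, with overlap. Without the library labelled replicate 4, at 0.833, the NFKBIE-wt spleens were at 0.436 to 0.542, still overlapping. In the spleens the macrophage list summed to 91.9 to 361 CPM in NFKBIE-ko and 25.6 to 86.5 CPM in NFKBIE-wt, where 25.6 is the library labelled replicate 4. That library had the highest class II sum of the NFKBIE-wt spleens, 2077 CPM, and the lowest sums of macrophage, granulocyte and erythroid genes.

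**Figure D5:**
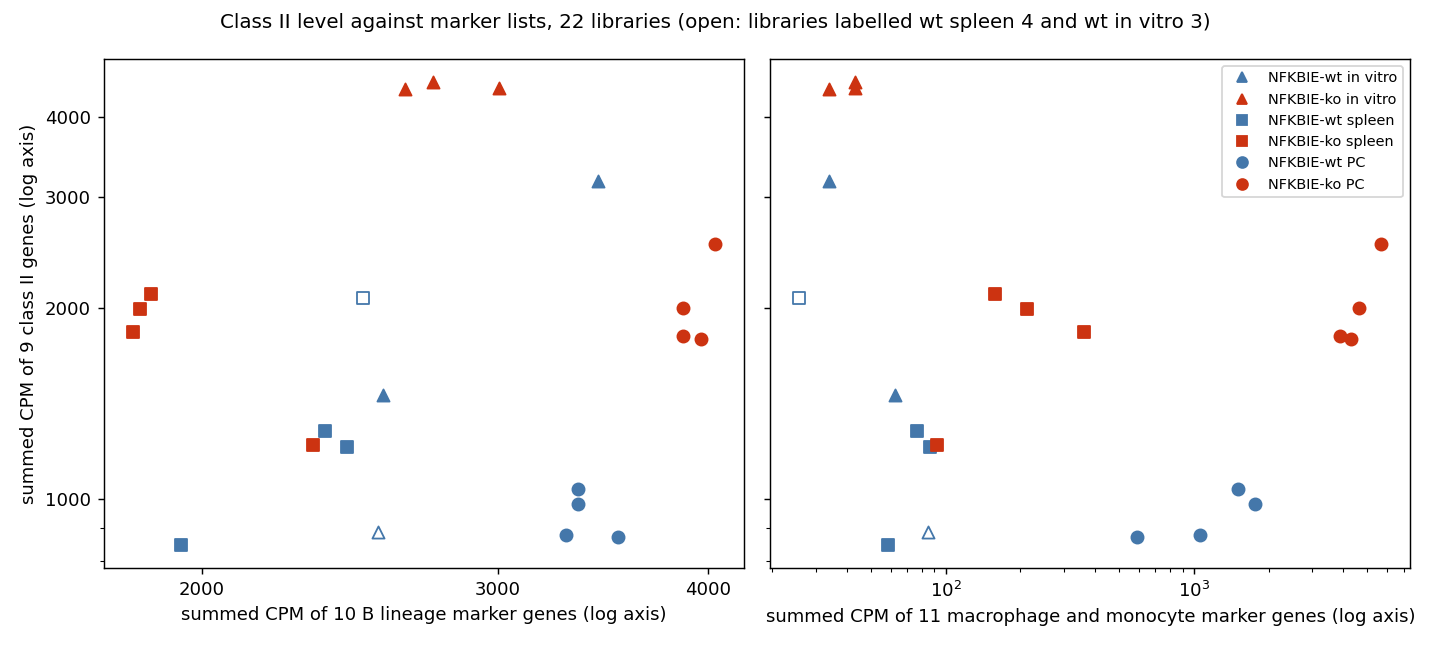
Summed CPM of the 9 class II genes against the summed CPM of 10 B-lineage genes (left) and of 11 macrophage and monocyte genes (right) in the 22 libraries, log axes. Blue is NFKBIE-wt, red NFKBIE-ko, symbols mark compartments, and open symbols are the libraries labelled NFKBIE-wt spleen 4 and NFKBIE-wt in vitro 3. NFKBIE-ko cultures have the highest class II sums, 4428 to 4555 CPM, at macrophage sums of 33.8 to 43.0 CPM.

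The genes whose log2 CPM followed the members most closely were sought among 13537 genes over the 22 libraries, which share the contrasts above, so that the correlations are a description. For Ciita the most alike gene that is not a member was Arl8b, a GTPase of lysosome positioning, with a Pearson correlation of 0.983, or 0.951 after the group means were taken out. Values within groups kept all libraries under their labels, those that stand apart included. They may therefore not be free of differences between compartments. Without those libraries the correlation with group means left in was 0.986. The 5 most alike genes lay between 0.965 and 0.983, with Tmem158 (0.968) and Igsf3 (0.965) among them. For H2-Ab1 the most alike gene other than members was Cd74, at 0.965 and 0.896 within groups, followed by Rogdi (0.944), Snrnp25 (0.943) and, as the fifth, Cdcp1 (0.938). Aldh7a1, an aldehyde dehydrogenase, was among the 5 most alike genes for both Ciita (0.968) and H2-Ab1 (0.939).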

How the data were processed

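Poly(A) RNA of the 22 samples was sequenced with Illumina TruSeq libraries. The authors quantified transcripts with Salmon 1.8 against GRCm39, per the labels, and deposited estimated counts per transcript, of which 69.5% of values are not whole; each of the 62492 transcripts is above 0 in at least 5 samples. Of these, 62147 matched the GENCODE annotation and were summed over 17023 genes and rounded, and 345 (0.619% of the counts) were dropped. Salmon splits reads between similar transcripts by estimation, so the split between related genes can move. Library totals ran from 24036763 to 26581304 (median 25647258).

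Groups came from the sample titles. Genes passing filterByExpr were tested in edgeR 4.0.16 (R 4.3.3) with TMM scaling, a robust quasi-likelihood fit of the 2 groups compared and Benjamini-Hochberg adjustment over all genes tested. A gene was called at an adjusted p below 0.05. Differences between compartments in the genotype effect used all 22 samples. All 10 members are named in every comparison, Cd74 wherever measured, and of the pathway list the 3 called genes with the largest change, apart from an item that is not reported here. Alternatives were DESeq2 1.42.0, its size factors, no filter, a fold threshold, single transcripts, all samples in the fit, a replicate block and libraries left out. Scripts were tested on simulated data. The members, lists and tests were chosen with earlier results of these data known. The labels do not say whether equal replicate numbers mark the same mouse, so the main tests used no pairing. The correlations of deviations between libraries of the same number ran from -0.311 to 0.429, and in no comparison were all above 0.1. Between NFKBIE-ko PC and spleen they ran from -0.048 to 0.185. Such weak correlations cannot decide whether the numbers pair the samples.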

Additional observations from a re-analysis of the deposited data

Results flagged for a closer look

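The level of Ciita in the library labelled NFKBIE-wt spleen replicate 4, 85.2 CPM, lay far from the other 3 NFKBIE-wt spleens, at 15.9, 17.6 and 24.3 CPM. Its gap to the nearest of them was 0.879 of the range of the group, above Dixon's critical value for 4 samples. It was 1 of 40 sets of 4 libraries examined, 1 for each gene and in vivo group, and chance alone marks about 1 in 20 such sets. The same library was the highest NFKBIE-wt spleen for all members but H2-Ob.

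The genotype difference of H2-Ob differed between the spleen and culture, by -1.31 ± 0.28 on the log2 scale (SE, edgeR adjusted p = 0.047, all 22 libraries in the fit). All 4 NFKBIE-ko spleens were below all NFKBIE-wt spleens, and all 3 NFKBIE-ko cultures were above all NFKBIE-wt cultures, though by as little as 60.1 against 59.9 CPM. The call was lost in 17 of the 22 fits that left out 1 library, and held without both libraries that stand apart (-1.49 ± 0.29, edgeR adjusted p = 0.023).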

How the results depend on the processing

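The counts below are members past an adjusted p of 0.05 in edgeR. For most alternatives the share of all genes that passed was not counted, so a changed count may hold for genes at large too. NFKBIE-ko against NFKBIE-wt in the spleen (1 member) gave 0 with the replicate block or with single transcripts, and 0 to 2 with 1 library left out. In the PC (9) it gave 5 with a log2 fold change beyond 1 and 9 with any library left out. In vitro (0) it gave 3 with DESeq2, 1 with all 22 samples in the fit and 0 to 7 with 1 library left out. PC against culture in NFKBIE-wt (2) gave 6 with DESeq2, 0 with the replicate block, 1 with single transcripts, 5 with all samples and 1 to 7 with 1 library left out; in NFKBIE-ko (9) it gave 5 with the fold threshold and 8 to 10. PC against spleen in NFKBIE-wt (5) gave 3 without the filter, 1 with single transcripts, 2 with the fold threshold and 1 to 5; in NFKBIE-ko (7) it gave 3 with the fold threshold. Spleen against culture in NFKBIE-wt (0) gave 1 without both libraries that stand apart, and in NFKBIE-ko 10 under every alternative run. The genotype effect in the spleen minus in vitro (1) gave 2 with DESeq2, 0 with its size factors in edgeR, without the filter, with the replicate block or with single transcripts, and 0 to 8 with 1 library left out, with 8 without NFKBIE-wt in vitro replicate 2. The replicate block changed these calls, and whether the numbers pair the samples is not known. The other differences of genotype effects stayed at 0 under all alternatives run.

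Of 2170 values of a member under an alternative, 1994 kept direction and side of the threshold, 91 lost the call, 37 gained it and 48 changed sign, 0 of them from a called value. With 1 library left out, H2-Eb2 in the spleen ran from -0.28 to 0.23 and H2-DMb1 from -0.33 to 0.021 between genotypes. H2-Aa in NFKBIE-ko PC against spleen ran from -0.18 to 0.10 (0.024 as single transcript) and H2-Eb1 from -0.092 to 0.22. The genotype effect of Ciita in the PC minus in vitro ran from -0.88 to 0.28 (0.27 without both libraries that stand apart), in the PC minus spleen from -0.18 to 0.99 (-0.20) and in the spleen minus in vitro from -1.60 to 0.00061 (0.47). With DESeq2's size factors, group levels moved by more than 1 SD for H2-Eb1 (1030 CPM) and H2-DMb2 (441 CPM) in NFKBIE-ko cultures and H2-Oa in NFKBIE-ko PC (24.6 CPM). The cause was not tested for any of these. Cd74 and the pathway list were also fitted without the libraries that stand apart and without NFKBIE-wt in vitro replicate 2, a choice made after seeing the data.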
